A study of Arabidopsis thaliana with 6 samples.

Results

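The narrowest stretches of trimethylated lysine 27 on histone H3 (H3K27me3) in young leaves of Arabidopsis thaliana accession Columbia-0 were 300 bases long. They were chosen by the width of the deposited domains, a measured value, and numbered 3003 of 15863 H3K27me3 domains (18.9%). Together they held 900.9 kb, 5.005% of all bases under the mark. The plants grew in soil at 22.5 °C, lit for 8 h and kept dark for 16 h a day, and the labels name no mutant and no treatment. The series has 6 samples, namely 2 H3K4me3 chromatin immunoprecipitation (ChIP) samples, 2 H3K27me3 ChIP samples, 1 input DNA sample and 1 mRNA sample. The biological replicates of a mark share 1 deposited domain list, and the mRNA values are read depths averaged over the exons of a gene, so no value below carries a replicate error. The number of ChIP reads is unknown. Whole young leaves mix many cell types, so 2 marks on the same bases need not lie in the same cells, and fewer cells expressing a gene cannot be told apart from less RNA per cell.

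H3K27me3 is set by Polycomb Repressive Complex 2 and, as background, is known in plants for silencing developmental regulators, typically over the whole body of a gene. Trimethylation of lysine 4 (H3K4me3) marks the beginning of transcribed genes. A domain caller that scans the genome in fixed windows joins neighbouring enriched windows, so a domain of a single window is the smallest object it can report. All domain starts, widths and gaps of this list were multiples of 300 bases, so each 300-base domain is a lone enriched window. The smallest gap between domains was likewise 300 bases.

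The 300-base domains had deposited scores from 244 to 916, with a median of 276 and quartiles of 256 and 314. The unit of the score is not given, and it serves here only to rank domains within the list. Scores crowded at the lower end, with 657 domains (21.9%) within 10 of the lowest value. Just outside the width limit, the 600-base domains scored 421 to 2048, with a median of 519. Of the 300-base domains, 167 scored at least 421, so the score ranges of the 2 widths overlapped. Per 300 bases the median was 276 for 300-base domains, 259.5 for 600-base domains, 331 for those of 900 to 2700 bases and 433 for those of 3000 bases or more. Since width chose the domains and the score follows width, these values are a description and carry no test.

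**Figure D1:**
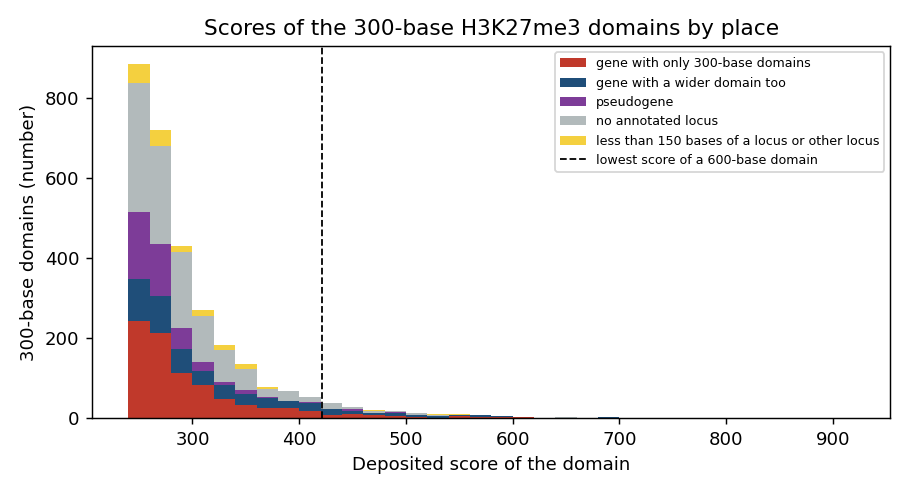
Number of 300-base H3K27me3 domains (vertical axis) by deposited score (horizontal axis, no unit given, bins of 20), stacked by where the domain lies. Most domains stand just above the lowest score of 244, and 167 reach 421, the lowest score of a 600-base domain (dashed line).

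The 300-base domains were spread over all 5 nuclear chromosomes. Chromosome 1 had 765, chromosome 2 had 476, chromosome 3 had 582, chromosome 4 had 511 and chromosome 5 had 669. They made up 18.3% to 19.7% of the H3K27me3 domains of a chromosome, at 24.2 to 27.5 per Mb. Each of the 116 full bins of 1 Mb held 300-base domains, from 12 to 47, with a median of 24. Like the 600-base domains, they were denser where genes are sparse. When 1 Mb bins were sorted into 5 groups by their protein-coding bases, the poorest first, there were 30.5, 32.3, 23.9, 19.6 and 19.0 of them per Mb. The 600-base domains had 45.4, 41.6, 34.1, 29.6 and 24.5 per Mb in the same groups. Domains of 900 to 2700 bases had another profile, with 55.4 per Mb in the poorest group, a maximum of 78.8 in the next and 53.0 in the richest. Among all H3K27me3 domains, the share that were 300 bases wide was 22.4% in the poorest group and 16.5% to 19.9% in the others.

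**Figure D2:**
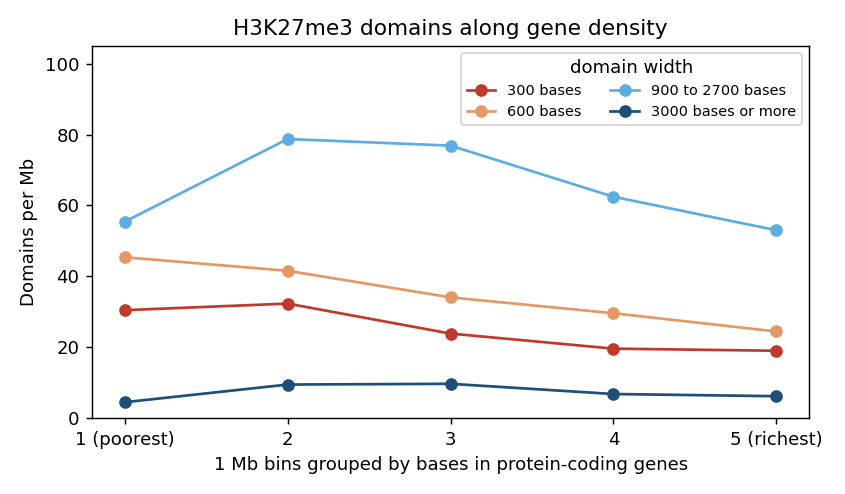
H3K27me3 domains per Mb (vertical axis) in 1 Mb bins sorted into 5 groups by the share of bases in protein-coding genes (horizontal axis), with a line for each domain width. The 300-base domains go from 30.5 and 32.3 per Mb in the gene-poor groups to 19.0 in the richest.

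On the whole, a smaller share of these domains than of windows outside the mark lay on genes, but not at close gaps to other domains. Of the 3003 domains, 1339 (44.6%, 95% exact Clopper-Pearson interval 42.8 to 46.4) had at least 150 bases in the body of a protein-coding gene. Of 337144 windows on the same grid without H3K27me3, 54.2% did. For the central 300 bases of 600-base domains the share was 48.4%, and for domains of 900 to 2700 bases 62.7% (61.6 to 63.8). Another 398 of the 300-base domains (13.3%) lay on pseudogenes, less than the 14.7% of all H3K27me3 domains and the 18.8% of 600-base domains, and more than the 8.05% of the windows outside. No annotated locus was touched by 1101 (36.7%, 34.9 to 38.4), against 29.9% of the windows outside and 18.2% of the domains of 900 to 2700 bases. At matched gaps to the nearest H3K27me3 domain these comparisons with windows outside came out differently. On protein-coding genes lay 40.3% of the 300-base domains against 26.9% of the windows at a gap of 300 bases, and 42.2% against 35.3% at 600 to 900. The order was the other way at wider gaps, with 41.6% against 54.1% at 1200 to 3000, 55.8% against 63.2% at 3300 to 9900 and 57.9% against 66.7% beyond 10 kb. The share at no annotated locus exceeded that of the windows at 1200 to 3000 bases, with 36.0% against 29.7%. It was lower at 300 bases (45.3% against 52.7%) and at 600 to 900 (39.9% against 46.2%). Beyond that, 21.2% stood against 23.0% and 21.9% against 21.8%, each within the counting interval. The remaining 165 touched another kind of locus or under 150 bases of a gene or pseudogene. Domains of a single list are not replicates, so these shares are set side by side with their counting intervals and were not tested.

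Where a domain lay also varied with its score. In 4 groups from the lowest to the highest scores, 39.6%, 41.8%, 41.2% and 55.7% lay on protein-coding genes. Pseudogenes had the opposite order, with 19.0%, 18.3%, 11.4% and 4.13%. The share touching H3K4me3 hardly differed between these groups, at 16.6%, 17.8%, 17.8% and 17.2%.

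Most 300-base domains had close neighbours. The median gap to the nearest other H3K27me3 domain was 900 bases (quartiles 300 and 2700), and 2330 (77.6%) had another domain within 3000 bases. For 600-base domains these values were 900 bases and 76.9%. A single window separated 1003 of the 300-base domains (33.4%) from the next domain, and 147 had a neighbour at this distance on both sides. The neighbours of these 1003 were of ordinary width, 52.0% of them of 900 to 2700 bases, against 49.1% of all H3K27me3 domains. At the other end, 178 domains (5.93%) were more than 10 kb from any other, and the most remote was 54300 bases away.

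The domains near others and the remote domains differed in H3K4me3. Of all 300-base domains, 521 (17.3%, 16.0 to 18.8) touched an H3K4me3 domain, and 453 of these lay wholly inside it. Among the windows outside H3K27me3 the share was 15.8%, so the total alone is close to the background. It was 19.7% for 600-base domains and 4.69% for those of 3000 bases or more, each by its central 300 bases. By chromosome the share for 300-base domains ranged from 16.3% on chromosome 1 to 19.9% on chromosome 5. Split by the gap to the nearest H3K27me3 domain, however, the share touching H3K4me3 was 5.88% (4.51 to 7.52) at 300 bases and 12.7% at 600 to 900. It was 20.7% at 1200 to 3000, 36.8% (32.5 to 41.2) at 3300 to 9900 and 32.6% (25.8 to 40.0) beyond 10 kb. Windows outside H3K27me3 at the same gaps had 6.81%, 12.4%, 15.9%, 18.9% and 19.6%.

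The gap went with gene content too, as 40.3% of 300-base domains lay on protein-coding genes at a gap of 300 bases and 57.9% beyond 10 kb. The split in H3K4me3 was wider among domains on protein-coding genes. There, 43 of 404 domains at a gap of 300 bases touched H3K4me3 (10.6%, 7.81 to 14.1), against 22.5% of the outside windows on genes at that gap. At 3300 to 9900 bases, 159 of 276 did (57.6%, 51.5 to 63.5), against 28.8%. Beyond 10 kb, 55 of 103 did (53.4%, 43.3 to 63.3), against 28.2%. Within the 600-base domains the share rose from each gap group to the next, from 17.8% to 58.6%. At 3300 to 9900 bases it was 49.9%, below that of the 300-base domains. The domains of 900 to 2700 bases stayed between 11.0% and 26.6%. Off protein-coding genes, 87 of 1664 of the 300-base domains touched H3K4me3 (5.23%), against 1.58% of the outside windows there. Wider domains also exceeded these windows, with 6.19% at 600 bases, 3.31% at 900 to 2700 and 2.74% at 3000 or more. Of the 87, 52 lay on pseudogenes, which held 13.3% of the 300-base domains and 8.05% of the outside windows.

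**Figure D3:**
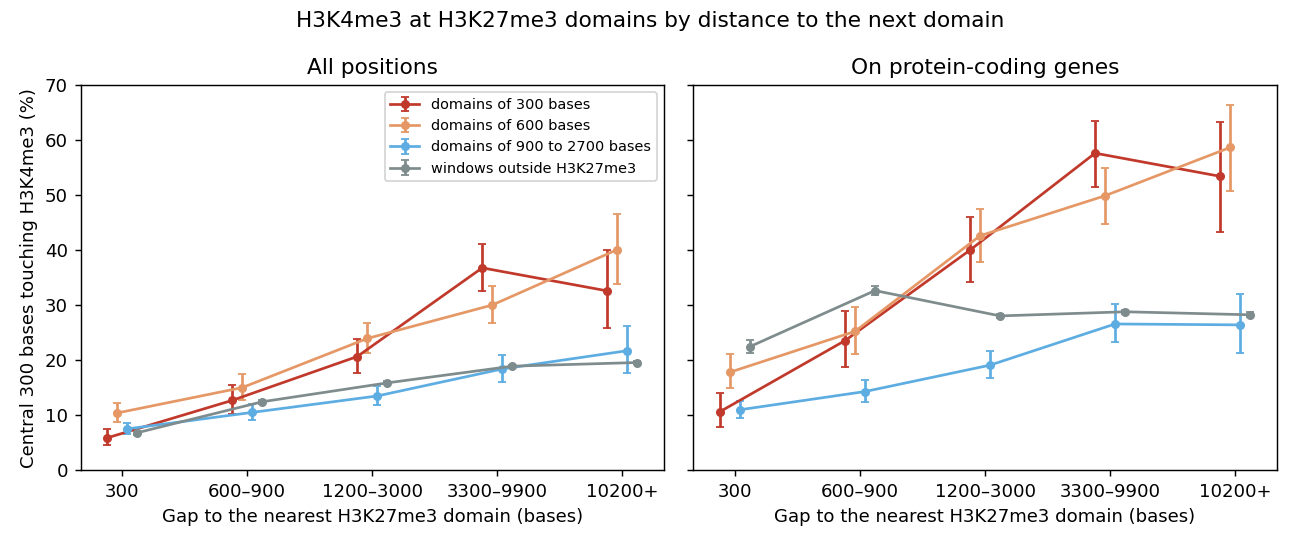
Share of domains whose central 300 bases touch H3K4me3 (vertical axis, percent, with 95% exact intervals) by the gap to the nearest other H3K27me3 domain (horizontal axis, bases), at all positions (left) and on protein-coding genes (right). On genes, 300-base domains go from 10.6% at a gap of 300 bases to 57.6% at 3300 to 9900, while windows outside H3K27me3 (grey) lie between 22.5% and 32.6%.

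Leaving out H3K4me3 domains under the median score of their list must lower every share. It left 7.09% of the 300-base domains touching H3K4me3 (6.20 to 8.07) and 10.6% of the windows outside, so the order of these shares was the other way from that in the full list. More than 3000 bases from any other domain, 19.5% of the 300-base domains touched the remaining H3K4me3, against 12.9% of the windows. At a gap of 300 bases, 0.499% did, against 4.34%. Domains more than 3000 bases from any other exceeded those at 300 bases by 29.8 percentage points in this share, by 45.8 on protein-coding genes and by 19.0 without the lower-scoring H3K4me3 domains.

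Where the marks met, the 300-base domain tended to sit on the middle of the H3K4me3 domain. Around all 3003 domains, H3K4me3 covered 16.4% and 16.1% of the bases in the central pair of 150-base steps. It covered 4.70% and 4.40% at 525 bases on either side, and 9.96% at the far right end of the profile, 4875 bases away. The median distance between the centre of a touching 300-base domain and the centre of its H3K4me3 domain was 75 bases (quartiles 0 and 150). In 434 of 521 cases (83.3%, 79.8 to 86.4) it was at most 150 bases, against 38.2% of outside windows that touch H3K4me3. Wider H3K4me3 domains leave room for larger distances, so the share was also taken at 1 width. With H3K4me3 domains of 750 bases alone it was 41 of 45 (91.1%, 78.8 to 97.5), against 32.9% of outside windows. With 300-base domains wholly inside H3K4me3 it was 82.6%, against 52.4%. Among H3K4me3 domains at or above the median score of their list it was 64.3% (57.5 to 70.7), against 31.1% of outside windows. The central windows of 600-base domains had 87.0%, so the centring was also found at that width. The touched H3K4me3 domains had a median width of 600 bases and a median score of 706, against 750 and 1221 over all 19276. For 300-base domains more than 3000 bases from any other they had 750 and 1400.5.

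**Figure D4:**
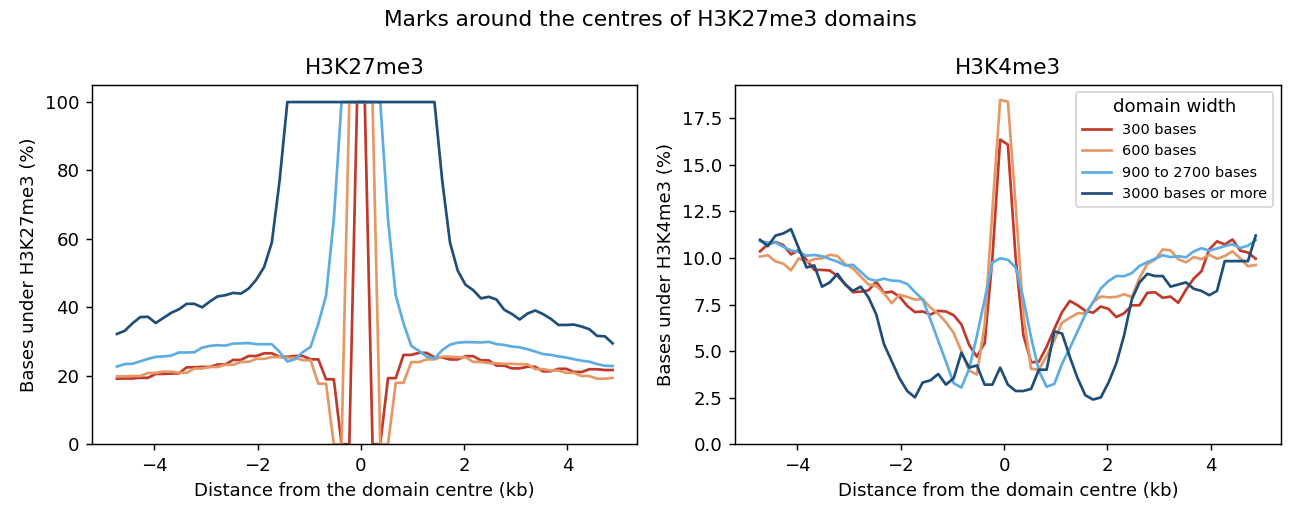
Share of bases (vertical axes, percent) under H3K27me3 (left) and H3K4me3 (right) by distance from the centre of H3K27me3 domains (horizontal axis, kb, in 150-base steps), with a line for each domain width. H3K4me3 peaks at 16.4% on the centre of 300-base domains and dips to 4.40% at 525 bases, whereas domains of 3000 bases or more show no central peak.

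On genes, the 300-base domains came in 2 settings. Of the 1339 domains, 848 lay on a protein-coding gene that carried no wider H3K27me3 domain, and 491 on genes that a wider domain also touched. The median gap to another domain was 2400 bases for the former and 300 for the latter, which have a near neighbour by definition. Of the former, 43.4% touched H3K4me3 (40.0 to 46.8) against 13.4% (10.6 to 16.8). Counted as genes, 1282 had at least 1 such domain on the body, 72 of them 2 and 5 of them 3. Those whose only H3K27me3 was in 300-base domains numbered 820, 2.99% of 27444 protein-coding genes and 9.65% of the 8499 with the mark. A gene was taken as marked from 150 covered bases on, or by full cover where the body was shorter. Of the 820, 173 overlap another annotated gene.

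The mRNA of these 820 genes was divided by H3K4me3. The mark was on 415 of them (50.6%), against 78.6% of genes without H3K27me3 and 22.7% of genes under domains of 3000 bases or more. In total, 507 of the 820 were listed in the mRNA table (61.8%, 58.4 to 65.2), against 72.9% of all protein-coding genes. Their median depth was 1.51 (1.19 to 1.94), with a depth of 0 for genes that the table leaves out, and 5.72 over the listed genes alone. The 0 means only that no value was given. With H3K4me3, 94.0% were listed (91.2 to 96.1) and the median depth was 7.61 (6.30 to 9.34). Genes with H3K4me3 and no H3K27me3 had 98.2% listed (97.9 to 98.4) and a median of 8.93 (8.71 to 9.15). The intervals of the medians overlap, and those of the listed shares do not. The 7.61 pools a median of 9.09 in 344 genes with a 300-base domain wholly inside H3K4me3 with lower ones. These were 1.61 in 29 genes with partial overlap and 3.51 in 42 with the marks apart. The median depth of genes with H3K4me3 was 3.98 where the widest H3K27me3 domain had 600 bases, 1.64 at 900 to 2700 and 0 at 3000 or more. Without H3K4me3, 117 of 405 were listed (28.9%, 24.5 to 33.6), and the deepest reached 49.3. That share was 41.8% for genes with neither mark and 26.6% for those under domains of 900 to 2700 bases. With 1 mRNA library, differences in depth were not tested.

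**Figure D5:**
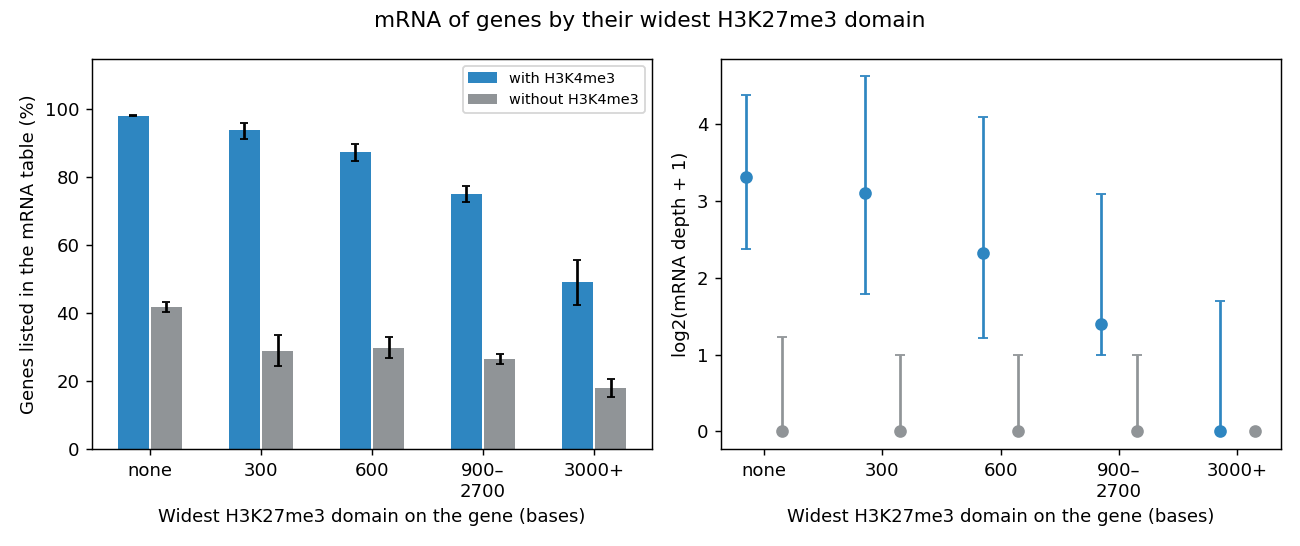
Genes listed in the mRNA table (left, percent with 95% exact intervals) and log2(mRNA depth + 1) with median and quartiles (right), by the widest H3K27me3 domain on the gene (horizontal axis, bases) and by H3K4me3 (colours). With H3K4me3, genes whose only H3K27me3 is in 300-base domains had a median depth of 7.61, next to 8.93 without H3K27me3.

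Very deep transcripts were more frequent among the 415 genes with H3K4me3 than among genes with H3K4me3 alone. Of the former, 34 reached a depth of 100 (8.19%, 5.74 to 11.3), against 4.35% (4.03 to 4.69) of genes with H3K4me3 and no H3K27me3 and 2.91% of all protein-coding genes. Genes with H3K4me3 and a 600-base domain had a like share, 7.59% (5.76 to 9.79). All 34 were among the 344 genes with a 300-base domain wholly inside H3K4me3. None was among the 29 genes with partial overlap or the 42 with the marks apart, where up to 11.9% and 8.41% are still possible by the exact intervals. Genes with 300-base domains alone made up 12 of the 200 deepest genes (6%, 3.14 to 10.2), against 2.99% of all protein-coding genes, which lies below that interval. Genes without H3K27me3 also exceeded their share, with 77.5% (71.1 to 83.1) against 69.0%. Those with a 600-base domain as the widest had 7% (3.88 to 11.5) against 5.71%. Shares were lower than over all genes at 900 to 2700 bases (7.5% against 18.5%) and at 3000 or more (2% against 3.76%). The 415 genes were shorter than those with H3K4me3 and no H3K27me3, with a median body of 2187 against 2486.5 bases, and both had a median of 750 bases of H3K4me3.

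The 5 deepest of these genes each had a lone window that lay wholly inside H3K4me3, and 4 of them serve photosynthesis. They belong to the 34 genes at a depth of 100 or more, so this position adds nothing to that count. Photosynthesis genes were deep in this library without H3K27me3 too. The 59 in the lists further below had a median depth of 2459, and 51 of them had no H3K27me3. CAB3 (AT1G29910), a light-harvesting protein of photosystem II, had a depth of 10871. Its domain on chromosome 1 (10472701 to 10473000, TAIR10, 1-based) scored 266 and was 13800 bases from the next. CAB genes are near-identical copies, so reads may be split between them and the depth is uncertain. LHCA3 (AT1G61520), an antenna protein of photosystem I, had a depth of 6006 and a domain scoring 265 on chromosome 1 (22700701 to 22701000). PSAD-1 (AT4G02770), a stromal subunit of photosystem I, had a depth of 3567. Its domain on chromosome 4 (1229401 to 1229700) scored 244, the lowest value in the list. GAPA-2 (AT1G12900), a glyceraldehyde-3-phosphate dehydrogenase subunit of the Calvin cycle, had a depth of 1698 and a score of 274 (chromosome 1, 4393801 to 4394100). ATMS1 (AT5G17920), a methionine synthase, had a depth of 865 with 2850 bases of H3K4me3 on its body. Its domain scored 309 and lay on chromosome 5 (5935801 to 5936100). All 5 domains scored under the 421 of the lowest 600-base domain, as did all but 167 of the 300-base domains. The score follows width, and per 300 bases the lowest 600-base domain had 210.5, below all 5.

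The next 10 genes by depth, named after their values were seen, belong to the genes at a depth of 100 or more counted above. Their windows therefore lay wholly inside H3K4me3, which adds nothing to that count. Scores ran from 252 to 358. COR15A, a cold-regulated chloroplast protein, had a depth of 819, FIB, a plastoglobule fibrillin, 619, and RBP31, a chloroplast RNA-binding protein, 547. FSD1, an iron superoxide dismutase, had 503. Lower in this group stood AT5G19940 at 399, AT5G18380 at 397 and AOC2, an allene oxide cyclase of jasmonate synthesis, at 341. EMB3113 had 297.9, TROL, a thylakoid protein that binds ferredoxin-NADP reductase, 286.8, and CP29, another chloroplast RNA-binding protein, 286.2. AT5G19940 and TROL each overlap a further gene, so their depths are uncertain. The domain of RBP31 was the most isolated of these, 32700 bases from the next.

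The 5 highest-scoring 300-base domains were picked by score and the genes above by depth, so their depths are not compared. All 5 stood a single window away from a wider domain, 4 of them on genes that the wider domain also covered. Of all 300-base domains, 33.4% had a gap of 300 bases to the next domain of any width. None of the 5 genes exceeded a depth of 1.99. In the highest of the 4 score groups, 17.2% of domains touched H3K4me3, against 16.6% in the lowest. The top score of 916 was on NAC075 (AT4G29230), a NAC transcription factor with a depth of 1.99 and 4200 bases under H3K27me3 in all. Its domain lay on chromosome 4 (14412601 to 14412900), next to a domain of 2400 bases. The second, with 862, was on the syntaxin gene SYP72 (chromosome 3, 16613101 to 16613400), next to a domain of 1500 bases. The third, with 807, was on MYB101, a MYB factor of pollen tubes (chromosome 2, 13784101 to 13784400). It was the only one of the 5 inside H3K4me3, which covered 300 bases of the gene. AT5G63230 had a domain scoring 774 (chromosome 5, 25357501 to 25357800) and no other H3K27me3 on its body. PAB3, a poly(A)-binding protein of reproductive tissues, had a domain scoring 701 (chromosome 1, 8055601 to 8055900) and a depth of 1.00. No depth was given for SYP72, MYB101 and AT5G63230.

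The genes with the most lone windows were the 5 with 3 such domains, AT1G17150, AT3G32980, AT4G10220, APT4 and AT5G42210. None carried H3K4me3, which was also lacking on 405 of the 820 genes with 300-base domains alone. Of all 27444 protein-coding genes, 9773 lacked it. The windows of the 5 genes had gaps of 300 to 1800 bases, where H3K4me3 was less frequent than at wider gaps. AT1G17150 had its 3 domains a single window apart, with scores of 245, 322 and 255, and was not listed. On AT5G42210 the scores were 552, 247 and 333, at gaps of 600 bases, and the depth was 1.59. AT3G32980 had the highest depth of the 5, at 4.24. AT4G10220 was not listed and overlaps another gene. APT4, an adenine phosphoribosyltransferase, had a depth of 1.00 and, unlike the other 4, was also touched by a wider domain. Among unlisted genes with 300-base domains alone, the first by locus on each chromosome were GSTF5, AT2G01379, AT3G01185, AT4G03360 and BSK10. GSTF5 is a glutathione S-transferase and BSK10 a brassinosteroid-signalling kinase. None of these 5 carried H3K4me3, and their domains scored 244 to 281. Most unlisted genes with 300-base domains alone lack H3K4me3. Of the 415 that carry it 94.0% were listed, and of the 405 without it 28.9%.

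Across 13 lists of known genes, 300-base domains were the only H3K27me3 for 5 of 184 members (2.72%), close to the 2.99% of all protein-coding genes. The leaf character of the RNA was plain in these lists, with all 59 photosynthesis genes listed at a median depth of 2459, and 19 of 57 genes of flowers, meristems, roots, pollen and seeds listed, none above 11.7. Of the 59 photosynthesis genes, 51 had no H3K27me3 and 4 had 300-base domains alone, which were CAB3, LHCA3, PSAD-1 and GAPA-2. Of the others, 3 had a 600-base domain as the widest and 1 a domain of 900 to 2700 bases. Of the 57 genes of other organs, 28 had domains of 900 to 2700 bases, 22 had domains of 3000 or more and 5 had none. The member with a 300-base domain alone was CUC1 (AT3G15170), a NAC factor that sets organ boundaries. Its domain on chromosome 3 (5111101 to 5111400) scored 384 and was 22200 bases from the next, with no H3K4me3 on the gene, which was not listed. The floral identity gene CAL and the oleosin gene OLEO2 had a 300-base domain beside wider ones. None of the 18 Polycomb, 9 clock, 14 flowering time, 15 defence, 10 root, 4 pollen or 12 housekeeping genes had a 300-base domain on its body. These 7 lists, with 82 genes, are grouped here because they had none, so their 0 carries no information on a lower share. Over all 13 lists, 7 of 184 genes had a 300-base domain on the body. Of all protein-coding genes, 4.67% had one.

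Gene families, defined by their names after results were seen, can be read against the 2.99% of all protein-coding genes. Genes with 300-base domains alone were 2 of 71 WRKY, 2 of 100 NAC, 3 of 125 MYB and 3 of 234 cytochrome P450 genes. Of 80 SAUR genes, which respond fast to auxin, 7 had them (8.75%), which was higher than in these 4 families and was not tested. AT4G34760 had the highest depth of the 7, at 26.1, with 618 bases of H3K4me3, and AT1G56150 and SAUR9 also carried H3K4me3. AT4G34780 and AT5G42410 had neither H3K4me3 nor a depth. Transcription factors with 300-base domains alone included WRKY40 of pathogen defence, at a depth of 2.46 with 900 bases of H3K4me3, and MYB60 of guard cells, at 9.03 with 450. WRKY66, MYB99 and the MADS genes GOA, AGL85 and AGL55 were not listed, and NAC088 had a depth of 1.85. MYB66, which patterns the root epidermis, had a depth of 1.00 and BHLH100 of iron deficiency 2.52, neither with H3K4me3.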

How the data were processed

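Per the submitters' processing notes, Bowtie, SICER and the TAIR10 build were used. Tool versions and settings, and how replicates and input were combined, are not given in the labels or file headers. Each deposited domain list holds 1 mark, with a whole-number score per domain, in a unit that is not stated. The deposited mRNA values are a coverage signal, averaged over exons. In all, 20764 genes were listed, from 1.00 to 22244 with a median of 6.74. Depth of sequencing per sample is unknown, so intervals cover counting error over regions or genes only.

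Starts and ends, which count from 0 and include the last base, were raised by 1 to print 1-based positions. The 300-base domains were set beside the central 300 bases of wider domains and beside 337144 windows of the 300-base grid that hold no H3K27me3. Gene bodies and names came from the RefSeq table of TAIR10.1, which has no strand. Its coordinates are not printed. Shifting H3K4me3 domains by up to 2000 bases in steps of 50, the best fit to gene bodies was at a shift of 0 on each of the 5 chromosomes. Of the listed loci, 20677 were found in that table. Newer loci may be missing from the mRNA table. A clone-based older name was missing for 46.6% of the unlisted genes with 300-base domains alone and 27.0% of the listed ones. For genes without H3K27me3 these shares were 61.1% and 26.4%.

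Shares have 95% exact Clopper-Pearson intervals and medians order-statistic intervals. No p-value was computed, because regions of 1 list are not replicates. Overlap functions were tested on simulated data. Python 3.11.15 with pandas 2.3.3 and scipy 1.17.1 was used. The domains, gene lists and families were chosen with earlier results of these data known. Named genes were the 5 highest-scoring domains, the 5 deepest genes, the first unlisted gene per chromosome, the 5 genes with most domains and all list members with 300-base domains alone; others are said to be chosen later.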

Additional observations from a re-analysis of the deposited data

How the results depend on the processing

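No paired analysis was possible because the domain lists carry no replicate columns, and leaving out a replicate was not possible for the same reason. The share of 300-base domains touching H3K4me3 (17.3%) was the same when 150 shared bases were asked for, as both grids fix, and 17.3% among domains at or above their median score, but 7.09% with H3K4me3 domains at or above the median score of their list. The share on protein-coding genes (44.6%) was 45.7% with any overlap, 39.8% when all 300 bases had to lie inside and 48.2% at or above the median score. Among genes with 300-base domains alone, the share listed (61.8%) was 66.9% with at least 300 bases of the body, 57.0% for genes that overlap no other and 60.5% at or above the median score. Their median depth (1.51) was 2.06 with at least 300 bases, 5.72 for listed genes only, 1.21 for genes that overlap no other and 1.48 at or above the median score. The share within 3000 bases of another domain (77.6%) was 82.7% at or above the median score and 70.8% with wider domains as the only neighbours.

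Alternatives for 2 further results were chosen after seeing the data. The share touching H3K4me3 was 29.8 percentage points higher beyond 3000 bases than at 300. This difference was 34.5 for the upper-scoring 300-base domains, 45.8 on protein-coding genes and 19.0 with the upper-scoring H3K4me3 domains. The share centred within 150 bases of the H3K4me3 centre (83.3%) was 91.1% for H3K4me3 domains of 750 bases, 82.6% for domains wholly inside H3K4me3, 79.6% beyond 3000 bases from any other domain and 64.3% for the upper-scoring H3K4me3 domains. The planned results on gene starts and promoter motifs were not run, since no strand or sequence table was at hand. The cause of these shifts was not tested.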
